A study of Rattus norvegicus with 30 samples.

Results

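Compulsive methamphetamine (METH) takers, called shock-resistant (SR), were compared with non-compulsive METH takers, called shock-sensitive (SS), at the level of hippocampal mRNA. The comparison used all libraries whose titles begin with SR (n = 7) or SS (n = 6) and are 13 of the 30 libraries of the series. The labels do not say which rat a library came from, and each was treated as a separate rat. All rats were adult male Sprague Dawley animals of wild type genotype that pressed a lever for intravenous METH over 21 days of training and then over 8 days on which part of the presses also brought a foot-shock. Rats that went on pressing under punishment form the SR group, and rats that reduced it form the SS group. The groups were therefore set by behavior and not by assignment, so that a transcript difference that preceded the training, one that came from the drug taken and one that came from the shocks received cannot be told apart in this comparison. The other groups are given only as a reference, namely drug-naïve CT rats with saline and no shock (n = 7) and saline rats yoked to the shocks of SR rats (YSR, n = 5) or of SS rats (YSS, n = 5).

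The deposited records name the dorsal striatum in their tissue field, whereas their protocol text and the paper's methods describe dissection of the hippocampus. The records and the paper's abstract place euthanasia 2 h after the final session, whereas the paper's methods place it directly after that session. Marker genes of hippocampus, striatum and other tissues were not analysed here, because the count tables identify genes by Ensembl identifier only and none could be matched to a symbol (0 of 32552), so that the tissue label was not checked against the data. For the same reason genes are described by identifier or by position. Positions are those of the deposited tables, whose genome build is not given in the sources used here.

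The hippocampus stores contextual and spatial memory, including the memory of places and cues tied to drug taking and to punishment. METH releases dopamine and other monoamines from nerve terminals, and repeated intake changes transcription in many forebrain regions. Continued intake despite punishment is used as an animal model of compulsive drug use. In bulk tissue, fewer cells of a type and less RNA per cell cannot be told apart.

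In SR rats the libraries held from 16329258 to 18737037 counts (median 16946598) and in SS rats from 16202659 to 19110830 (median 17536540). At this depth a floor of 3 counts corresponds to between 0.157 and 0.185 CPM (counts scaled to library size), which covers counting error only. Over 11931 genes with at least 50 counts in each of the 13 libraries, pairs of libraries were compared by chi-square divided by its degrees of freedom, which ran from 6.79 to 26.9 in the 36 pairs within a group and from 5.39 to 32.8 in the 42 pairs across the groups. Sampling noise alone would give values near 1, so that no library was treated as a repeat of another.

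The libraries of the groups were alike in their general measures, within the spread between rats. Mitochondrial genes took 7.88% ± 1.02 (SD, n = 7) of the counts in SR rats and 7.80% ± 0.763 (SD, n = 6) in SS rats (exact two-sided permutation test, p = 0.879). The 10 most counted genes of each library took 8.09% ± 0.976 and 7.93% ± 0.748 of the counts (exact permutation test, p = 0.753). Principal components of log2 CPM did not separate the groups either, since the first component held 18.7% of the variance (exact permutation test, p = 0.956), the second held 13.2% (exact permutation test, p = 0.242) and the third held 10.5% (exact permutation test, p = 0.14). Of 8 library measures tested in this way, the smallest adjusted p was 0.802 (exact permutation tests with Benjamini-Hochberg adjustment). Single libraries lay at the ends of these components, namely the SR library XII-R05 with -30 on the first, the SS library XIII-L05 with 32.9 on the second and the SS library XII-L03 with -32.7 on the third.

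A subset of the SR libraries stood apart in some genes. The titles carry a code XII or XIII, taken here as the cohort of the rat, and then an L or R with a number, none of which the labels explain. In cohort XII there were 4 SR and 2 SS libraries, and in cohort XIII 3 SR and 4 SS libraries. All CT libraries apart from XII-R11 were of cohort XIII. On the second component every library of cohort XII (-22.1 to -4.33) lay below every library of cohort XIII (-1.06 to 32.9). The permutation tests of the library measures did not take cohort into account. The letter was L in 3 SR and 4 SS libraries and R in 4 SR and 2 SS libraries. The 3 SR libraries with the letter L shared high values of a set of low-level genes described below, and for this reason counts of genes are also given without them.

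To ask which transcripts differ between compulsive and non-compulsive METH takers, edgeR's quasi-likelihood test was applied to 15797 genes in the 30 libraries. In SR vs. SS, 1178 genes (7.46% of those tested) had an unadjusted p under 0.05, where 790 would be expected if no gene differed. This excess was not found when the 13 SR and SS libraries were fitted alone, which gave 736 of 15168 genes (4.85%) and, with cohort as covariate, 651 (4.29%), where 758 would be expected. Of the 1178 genes in the fit with 30 libraries, 543 (3.44%) were higher and 635 (4.02%) were lower in SR rats. None passed an adjusted p of 0.05 after Benjamini-Hochberg adjustment (0 genes, 0%), and the smallest adjusted p was 0.0974. DESeq2 gave 1165 genes at the unadjusted threshold and 12 at the adjusted one, and Tukey's test among the 5 groups gave 189 and 0. Most called genes differed by little, with a median fold of 1.14 among the 1178. When a difference of at least 1.7-fold was required beside the unadjusted p, 57 genes (0.361%) were higher and 40 (0.253%) were lower in SR rats.

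Cohort was entered as a covariate because the groups drew unequally on the cohorts. With it, 1065 genes (6.74%) had an unadjusted p under 0.05 in edgeR's test, 488 (3.09%) of them higher and 577 (3.65%) lower in SR rats. No gene passed the adjusted threshold (0 genes, 0%; smallest adjusted p 0.167, edgeR's quasi-likelihood test with Benjamini-Hochberg adjustment), and DESeq2 with the same covariate gave 5. The lists without and with the covariate shared 921 genes, which are 78.2% of the former and 86.5% of the latter, all in the same direction. At 1.7-fold, 62 genes (0.392%) were higher and 40 (0.253%) lower with the covariate, of which 52 and 36 were also in the lists without it.

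Without the 3 SR libraries of letter L, a setting added after the data were seen, 1275 of 15873 genes had an unadjusted p under 0.05. Of these, 651 were among the 1178 and 650 had the same direction there. At 1.7-fold, 53 genes were then higher and 44 lower in SR rats. Of the 57 genes listed as higher with all libraries, 21 remained, only 1 of them from the set that followed the letter, and of the 40 listed as lower, 25 remained. The similar totals thus hid an exchange of genes. The loss of the set that followed the letter is built in, since it was picked as high in the 3 libraries left out. The higher and lower lists are therefore not compared in this respect.

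Of the genes higher in SR rats, the 2 with the smallest p passed the filter on low counts in the 30 libraries because CT rats had high values too. Neither passed it in the 13 SR and SS libraries alone, where they were not tested, so that their adjusted p-values below hold only for the fit with all groups. The first was ENSRNOG00000051439, which lies on the unplaced scaffold KL568242.1 from 3334 to 3600 on the minus strand and has an exon length of 267 bases. It had 53, 22 and 45 counts in the SR libraries XIII-L09, XII-L05 and XII-L07, and 0, 0, 2 and 1 counts in XIII-R07, XIII-R09, XII-R05 and XII-R07. In SS rats it had 1 count in XIII-R03 and 0 in each of the other 5 libraries. The high SR libraries were the 3 with the letter L, and the 4 with the letter R lay at or under the floor of 3 counts, as the SS libraries did. The groups therefore overlapped. In sum there were 123 counts in SR rats against 1 in SS rats, a normalized ratio of 107 with a 95% counting interval from 18.9 to 4270, which does not include the spread between rats. Adjusted p was 0.0974 in edgeR's quasi-likelihood test with Benjamini-Hochberg adjustment, and p was 0.0659 by the exact two-sided permutation test on log2 CPM. CT rats had 2.48 CPM ± 0.729 (SD, n = 7), between 1.46 and 3.43, whereas the highest YSR and YSS values were 0.0499 and 0.114 CPM.

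ENSRNOG00000005542, on chromosome 6 from 33176778 to 33224997 on the plus strand, came next. Its level was 6.09, 4.94 and 6.48 CPM in the SR libraries XIII-L09, XII-L05 and XII-L07. It was 0.413, 0.81, 0.118 and 0.182 CPM in the 4 SR libraries of letter R, namely XIII-R07, XIII-R09, XII-R05 and XII-R07. The 6 SS libraries had between 0.119 and 0.363 CPM (median 0.216). As with the scaffold gene, the SR libraries fell into a high and a low class by letter. The low class overlapped the SS libraries, although XIII-R07 and XIII-R09 lay above all of them. On the log2 scale SR rats were higher by 3.48 (standard error 0.695; adjusted p = 0.0974 in edgeR's quasi-likelihood test with Benjamini-Hochberg adjustment; exact two-sided permutation test, p = 0.0647). CT rats were at 5.79 CPM ± 1.24 (SD, n = 7), near the high SR libraries, while YSR and YSS rats were at 0.143 and 0.176 CPM. Without the SR libraries of letter L, the log2 fold change of ENSRNOG00000005542 was 0.67 (unadjusted p = 0.205 in edgeR's test).

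Among genes lower in SR rats, ENSRNOG00000010266 had the smallest p. It lies on chromosome 2 from 32820322 to 32833125 on the plus strand. Its level in SR rats was 3.13 (XIII-L09), 3.01 (XIII-R07), 2.95 (XIII-R09), 1.88 (XII-L05), 2.54 (XII-L07), 1.59 (XII-R05) and 2.49 CPM (XII-R07). In SS rats it was 4.16, 3.57, 3.88 and 3.25 CPM in XIII-L03, XIII-L05, XIII-L07 and XIII-R03 and 7.37 and 4.53 CPM in XII-L03 and XII-R03. Every SR library was below every SS library, although the highest SR and the lowest SS library differed by little, and the SS library XII-L03 was far above the rest. The means were 2.51 CPM ± 0.589 (SD, n = 7) and 4.46 ± 1.5 (SD, n = 6), with CT rats at 4.23 ± 0.858 (SD, n = 7), YSR rats at 3.97 ± 0.669 and YSS rats at 4.19 ± 0.586 (SD, n = 5 each). This is a log2 fold change of -0.82 (standard error 0.178; adjusted p = 0.144 in edgeR's quasi-likelihood test with Benjamini-Hochberg adjustment). By the exact two-sided permutation test p was 0.000583, the smallest that 1716 arrangements of 7 and 6 libraries allow, for a gene that was picked out of 15797 by its p. Within cohort XII the log2 fold change was -1.48 (unadjusted p = 0.000323) and within cohort XIII it was -0.29 (unadjusted p = 0.116). The test of the difference between the cohorts gave an unadjusted p of 0.00147 and an adjusted p of 0.408 (edgeR's quasi-likelihood test with Benjamini-Hochberg adjustment). Without the SS library XII-L03 the log2 fold change was -0.62.

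ENSRNOG00000007237, on chromosome 6 from 44348501 to 44363915 on the minus strand, was expressed at a higher level and differed less. SR libraries ranged from 34.5 to 45.7 CPM (median 39.1) and SS libraries from 43.3 to 52.7 CPM (median 49.1). The ranges overlapped through the SR libraries XIII-L09 and XIII-R07, with 44.5 and 45.7 CPM, and the SS libraries XIII-R03 and XIII-L03, with 43.3 and 45.4 CPM, all of cohort XIII. This gene had a log2 fold change of -0.27 (standard error 0.0593; adjusted p = 0.144 in edgeR's quasi-likelihood test with Benjamini-Hochberg adjustment; exact two-sided permutation test, p = 0.00524). It was -0.44 within cohort XII (unadjusted p = 0.000639) and -0.11 within cohort XIII (unadjusted p = 0.18), and the difference between the cohorts had an adjusted p of 0.472 in edgeR's quasi-likelihood test. CT rats were at 44.3 CPM ± 2.2 (SD, n = 7), between the METH groups. In DESeq2, unlike edgeR, all 4 genes had an adjusted p under 0.05, both without cohort as covariate (4 of the 12 genes that did) and with it (4 of 5). For the 2 higher genes this too was a fit with all groups. None of these 4 genes overlaps another gene of the deposited tables in position.

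**Figure D1:**
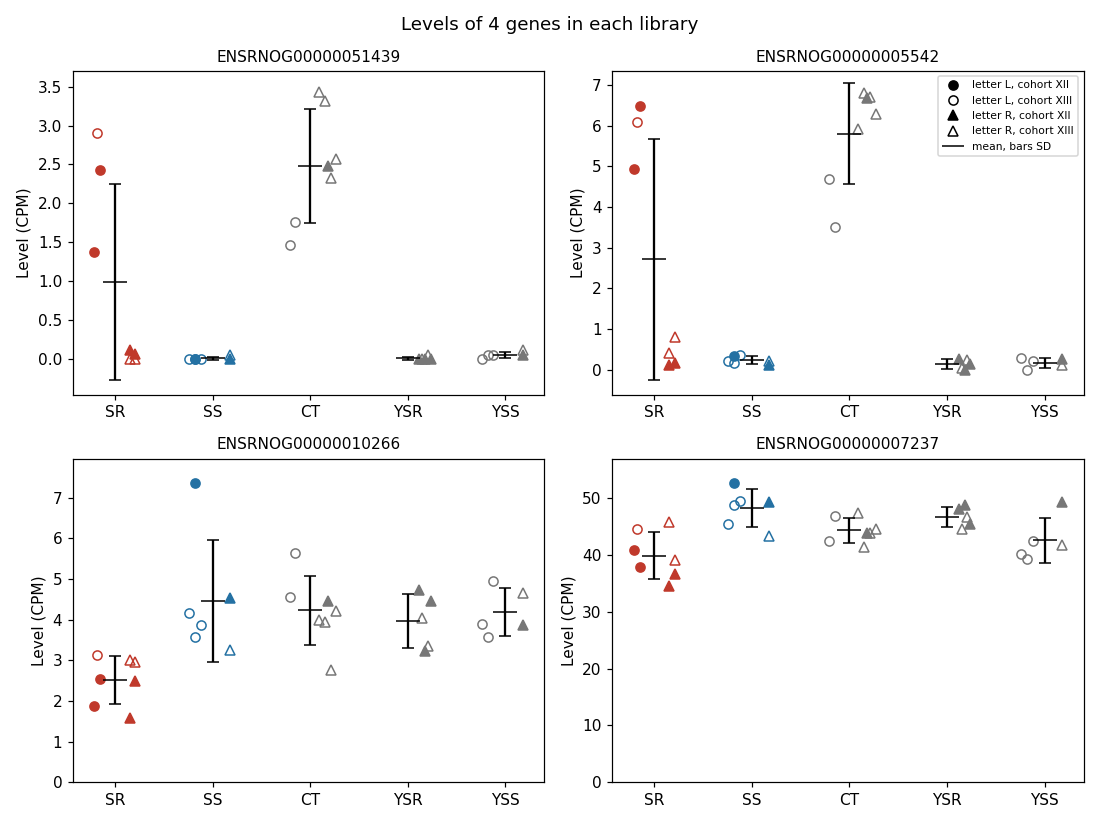
Levels in CPM of the 4 genes in each library of the SR (n = 7), SS (n = 6), CT (n = 7), YSR (n = 5) and YSS (n = 5) groups, with circles for letter L, triangles for letter R, filled symbols for cohort XII, open symbols for cohort XIII and black bars for the mean and SD. In the upper panels the 3 SR circles lie with the CT libraries, and the 4 SR triangles lie with or somewhat above the SS libraries. In the lower panels SR libraries of both letters lie below most SS libraries.

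The pattern of the first pair was common at the top of the higher list. Of the 10 genes with the smallest p in each direction, 7 of those higher in SR rats had every SR library of letter L above every other SR library and above every SS library, and 0 of the 10 had groups that did not overlap. Among the 10 genes lower in SR rats, 0 split by letter in this way, and 2 had groups that did not overlap. The 10 higher genes had a median log2 fold change of 2.7 and a median level of 1.19 CPM, and the 10 lower genes had a median size of 0.44 log2 units at 11.4 CPM. All 20 had an unadjusted p under 0.05 with cohort as covariate as well.

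In the 1.7-fold list of 57 higher genes, 21 followed the letter, against 68 of all genes tested (0.430%). The opposite order, with every SR library of letter L below the others, held in 77 of all genes tested (0.487%) and in 1 of the 40 lower genes. The set was picked by its values, so that its size carries no test. Its summed level was between 51.2 and 70.9 CPM in the 3 SR libraries of letter L and between 9.69 and 12.2 CPM in the 4 of letter R, while SS libraries had between 6.55 and 11.5 CPM. CT libraries, with either letter, had between 47.2 and 83.9 CPM. YSR libraries, all of letter R, had between 8.75 and 10.8 CPM. YSS libraries, with either letter, had between 8.36 and 12.1 CPM. The separation of the SR libraries follows from how the set was picked. Of the 21 genes, 15 did not pass the filter on low counts in the 13 SR and SS libraries alone and entered the fit with the other groups. The CT mean was nearer to that of SR rats in all of these 15 and in all of the 6 that did pass. Whether the filter had a part in the high CT levels was not tested.

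Level mattered for what reached 1.7-fold. Of the 57 higher genes 40, and of the 40 lower genes 22, had a mean under 1 CPM over the 13 libraries, as had 1484 (9.39%) of all genes tested. Between 10 and 100 CPM there were 2 of the higher and 2 of the lower genes, and at 100 CPM and over 1 and 0. At the unadjusted p alone, genes of 100 CPM and over were called lower more often than higher in SR rats, with 148 lower and 67 higher of 2236 tested, against equal numbers (137 each of 4211) between 1 and 10 CPM. Lower genes remained in excess at 100 CPM and over in 12 of the 13 fits that left out a library, but the size of the excess depended on single libraries. It was largest without the SR library XIII-L09 (221 lower, 81 higher), small without the SR library XIII-R07 (159 lower, 147 higher) and absent without the SS library XIII-L05 (53 lower, 53 higher). Within cohort XII the order was reversed (71 lower, 153 higher), and within cohort XIII there were 93 lower and 70 higher genes. The numbers were nearly equal in letter L libraries alone (50 lower, 49 higher) and equal in letter R libraries alone (32 lower, 32 higher).

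In 22 genes (0.139%) the 7 SR and 6 SS libraries did not overlap, with SR rats above in 8 (0.0506%) and below in 14 (0.0886%). If no gene differed, 2 of the 1716 arrangements, or 0.117%, would separate the groups, which is 18.4 of the genes tested and 9.21 in each direction. The number observed was near this, so that the genes are described and not offered as a result. The 8 genes had a median size of 0.29 log2 units (0.11 to 1.39) at mean levels between 0.327 and 59.5 CPM and lay on 7 chromosomes. The 14 had a median of 0.34 (0.09 to 0.82) at levels between 1.59 and 194 CPM and lay on 10 chromosomes. All 22 had an unadjusted p under 0.05 without and with cohort as covariate, and the smallest adjusted p among them was 0.144 (edgeR's quasi-likelihood test with Benjamini-Hochberg adjustment). Only 1 of the 57 genes and 1 of the 40 genes at 1.7-fold was among them.

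The cohorts share no library, so that each gives a separate SR vs. SS comparison. In cohort XII (4 SR, 2 SS), 1092 of 15442 genes (7.07%) had an unadjusted p under 0.05, 606 (3.92%) higher and 486 (3.15%) lower in SR rats. In cohort XIII (3 SR, 4 SS) there were 862 of 15315 (5.63%), 488 (3.19%) higher and 374 (2.44%) lower. At 1.7-fold, cohort XII gave 74 higher (0.479%) and 106 lower genes (0.686%), and cohort XIII gave 51 (0.333%) and 34 (0.222%). Neither cohort had a gene at an adjusted p under 0.05 (0 genes, 0% in each, edgeR's quasi-likelihood test).

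The directions in the cohorts were opposite more often than alike. Over 15156 genes tested in both, 44.6% had the same sign, and Pearson's and Spearman's correlations of the log2 fold changes were -0.046 and -0.121 across genes, which are not independent replicates. These were weak and moved with single libraries, to 0.0245 and -0.0326 without the SR library XIII-R07 and to -0.0958 and -0.149 without the SR library XIII-R09. Without the SS library XII-L03, 48.5% of genes had the same sign, and the correlations were -0.0235 and -0.0397. Without the SS library XII-R03 the share was 43.9%, and the correlations were -0.00857 and -0.121. Each of these 2 fits leaves 1 SS library in cohort XII. Of the genes called in cohort XII 34.7%, and of those called in cohort XIII 40.8%, had the same sign in the other. Among the genes tested in both, 1057 were called in cohort XII and 855 in cohort XIII. A total of 86 genes were called in both, 8.14% of the former and 10.1% of the latter. Of these, 23 had the same direction (17 higher and 6 lower in SR rats) and 63 the opposite one. Calls are not given for the fits without 1 of the 2 SS libraries of cohort XII, since the other alone has no spread of its own. The share with the same direction was 26.7%. It was between 18.7% (without the SS library XIII-R03) and 45.7% (without the SR library XIII-R07) when each of the other libraries was left out in turn. Over the same fits the number with the same direction was between 15 and 32. Its lean toward higher genes was not stable, with 9 higher and 10 lower without the SR library XIII-R09. The test of the difference itself, on the 13 libraries as 4 cells of group and cohort, gave 1433 of 15906 genes (9.01%) at an unadjusted p under 0.05 and 0 (0%) at an adjusted p under 0.05 (smallest adjusted p 0.408, edgeR's quasi-likelihood test with Benjamini-Hochberg adjustment). No gene could therefore be named as different between the cohorts.

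**Figure D2:**
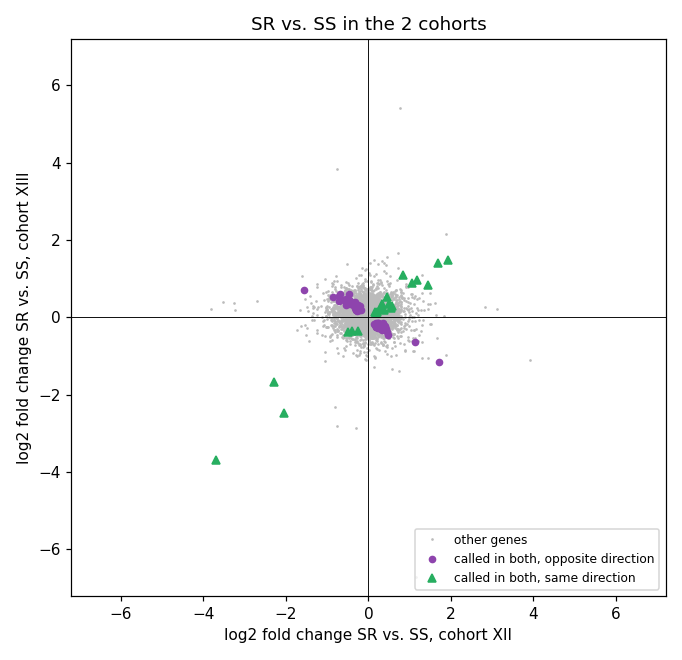
The log2 fold change of SR vs. SS in cohort XII (horizontal axis, 4 SR and 2 SS libraries) against that in cohort XIII (vertical axis, 3 SR and 4 SS libraries), with 1 point per gene for 15156 genes. Triangles mark the 23 genes called at an unadjusted p under 0.05 in both cohorts in the same direction, and dots mark the 63 called in both in opposite directions, most of which lie close to the center.

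Of the 15156 genes tested in both cohorts, 23 were called alike, against 63 called in opposite directions. The number to expect if no gene differed was not computed, so that the 23 are described and not offered as a result. They had median sizes of 0.51 log2 units in cohort XII and 0.36 in cohort XIII, and 20 of them were among the 1178. At least 1.7-fold was reached in both cohorts by 6 higher and 3 lower genes. Of the 23, 3 belonged to the set that followed the letter, and 4 had SR and SS libraries that did not overlap. These 4 were picked by their values, so that no further test is given for them.

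The first of the 4, on chromosome 4 from 123801174 to 123837662, had 7.06 to 8.33 CPM in SR rats (median 7.63) and 5.2 to 6.9 CPM in SS rats (median 6.13). Its log2 fold change was 0.33 in cohort XII and 0.35 in cohort XIII. The CT mean was nearer to that of SS rats, at 6.37 CPM ± 0.7 (SD, n = 7). The second, on chromosome 7 from 99954492 to 99961026, had 4.85 to 6.86 CPM in SR rats (median 6.08) and 3.21 to 4.66 CPM in SS rats (median 4.52). Its log2 fold change was 0.46 and 0.52 in the cohorts, and the CT mean was 4.01 CPM ± 1.02 (SD, n = 7), again on the SS side. On chromosome 3, from 148417993 to 148428494, a gene had 45.6 to 48.9 CPM in SR rats (median 46.6) and 40.2 to 45.1 CPM in SS rats (median 41.7). Here the difference was small, 0.21 and 0.15 on the log2 scale, and CT rats, at 40 to 51.9 CPM, covered both groups. The only lower gene of the 4, on chromosome 12 from 52606560 to 52658275, had 3.24 to 4.06 CPM in SR rats (median 3.52) and 4.42 to 5.32 CPM in SS rats (median 4.59), with log2 fold changes of -0.49 and -0.37. The position of this gene overlaps 4 other genes of the tables, 2 of them on the other strand, so that its counts may hold reads of its neighbors, and CT rats lay between the groups at 4.17 CPM ± 0.393 (SD, n = 7). Adjusted p over all genes was 0.489, 0.448, 0.616 and 0.25 for these 4 in the order given (edgeR's quasi-likelihood test with Benjamini-Hochberg adjustment).

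Called genes were unevenly spread over the chromosomes. On chromosome X, 39 of 546 genes tested (7.14%) were called lower and 9 (1.65%) higher in SR rats, with a median log2 fold change of -0.05, and the median was -0.04 in cohort XII and -0.02 in cohort XIII. On chromosome 18, 27 of 420 (6.43%) were lower and 5 (1.19%) higher, and on chromosome 2, 65 of 1032 (6.3%) were lower and 24 (2.33%) higher. Chromosome 10 leaned the other way, with 59 of 1301 (4.53%) higher and 27 (2.08%) lower. Lower genes outnumbered higher ones on chromosomes X, 18 and 2, and the reverse held on chromosome 10, in each of the 13 fits that left out a library. The number of lower genes on chromosome X was then between 24 (without the SS library XIII-L05) and 61 (without the SR library XIII-L09), on chromosome 18 between 11 and 34, with the same libraries left out, and on chromosome 2 between 39 (without the SR library XII-R05 or the SS library XIII-L05) and 90 (without the SR library XIII-L09 or XIII-R07). Of chromosome 10 genes, between 41 and 86 were then higher. Within the cohorts the differences were smaller or turned. Chromosome X had 22 lower and 16 higher genes in cohort XII and 12 and 9 in cohort XIII, chromosome 18 had 13 and 11, then 11 and 8, and chromosome 2 had 41 and 22, then 24 lower and 28 higher. In letter R libraries alone, chromosome 18 had 6 lower and 8 higher genes. Chromosome 10 had more higher than lower genes in both cohorts (45 and 30, then 48 and 24). Neighboring genes are not independent, and these differences in number were not tested.

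The share of all counts that fell on a chromosome was also compared. It was 3.06% ± 0.115 (SD, n = 7) for chromosome X in SR rats and 3.11% ± 0.0672 (SD, n = 6) in SS rats (exact two-sided permutation test, p = 0.353). Over 23 chromosomes, the mitochondrial genome included, the smallest exact permutation p was 0.0962, for chromosome 15, and the smallest adjusted p was 0.774. Of 29 mitochondrial genes tested, 3 were called higher and 0 lower in SR rats, with a median log2 fold change of 0.06 in cohort XII and -0.01 in cohort XIII.

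**Figure D3:**
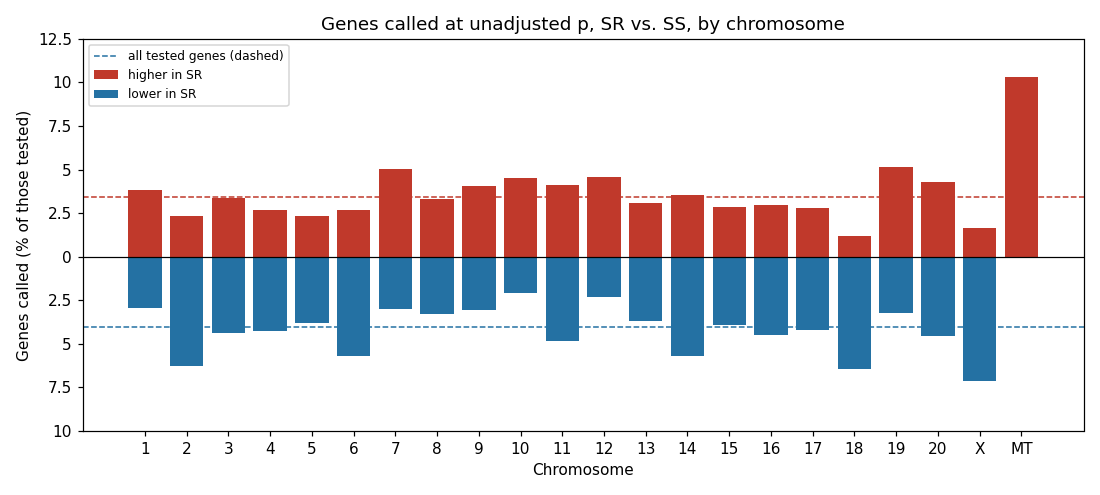
Genes called at an unadjusted p under 0.05 in SR vs. SS, in percent of the genes tested on each chromosome, with those higher in SR rats above 0 and those lower below 0. Dashed lines mark the 3.44% and 4.02% of all genes tested, and chromosomes X and 18 have the longest bars below 0 while the bar of the mitochondrial genome (MT) stands for 3 of 29 genes.

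Calls also differed between short and long genes. Tested genes were divided into 10 bins of equal number by the distance from gene start to gene end. In the bin of the longest genes, from 117856 to 6361343 bases, 104 genes (6.58%) were called lower and 32 (2.03%) higher in SR rats, with a median log2 fold change of -0.04. In the bin next to the shortest, from 2227 to 5161 bases, 58 genes (3.67%) were lower and 83 (5.25%) higher. The relation rested in part on the SR library XII-R05, whose deviations from the mean correlated with gene span across genes at -0.27, the lowest value among the 13 libraries. Without this library the longest genes gave 67 lower and 35 higher genes, and the bin next to the shortest gave 59 lower and 50 higher, so that only the former kept its direction. The latter also turned without the SR library XIII-R09 (61 lower, 56 higher). Lower genes outnumbered higher ones among the longest genes in each of the 13 fits that left out a library. There were between 51 (without the SS library XIII-L05) and 182 lower genes (without the SR library XIII-L09). Without XIII-L05, which had the highest span correlation (0.211), 30 of the longest genes were higher, against the 51 lower. In letter R libraries alone the longest genes gave 33 lower and 30 higher genes, and in letter L libraries alone 48 and 27. Within cohort XII the longest genes gave 48 lower and 66 higher genes, and within cohort XIII it gave 65 lower and 49 higher, so that the direction was not the same in the cohorts. For the span correlation itself, SR libraries ranged from -0.27 to 0.21 and SS libraries from -0.142 to 0.211 (exact two-sided permutation test of the means, p = 0.493).

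**Figure D4:**
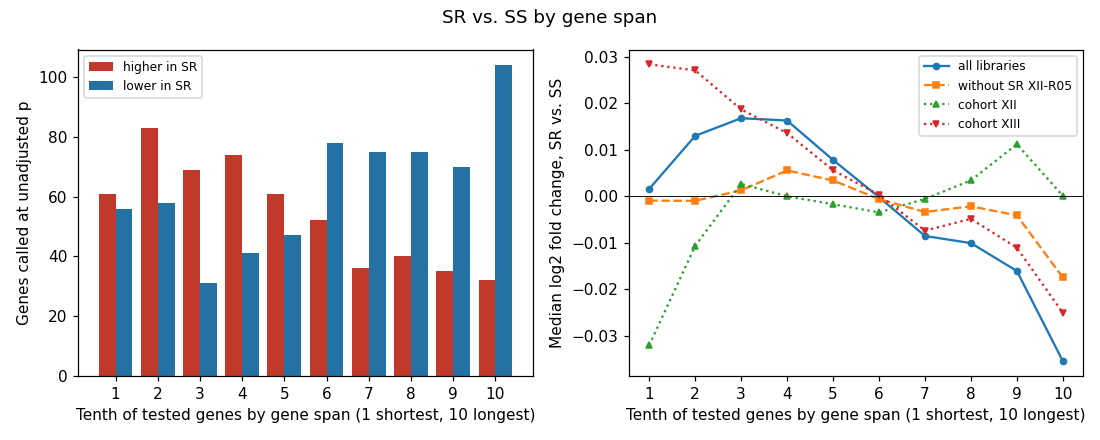
Left, number of genes called at an unadjusted p under 0.05 in SR vs. SS in each of 10 bins of the tested genes by gene span, higher (red) and lower (blue) in SR rats. Right, median log2 fold change per bin with all libraries, without the SR library XII-R05 and within each cohort. The median of the longest genes was -0.04 with all libraries and -0.02 without the SR library XII-R05. It was 8.35e-05 in cohort XII and -0.03 in cohort XIII.

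Neighboring genes that moved together were searched for as runs of at least 3 adjacent tested genes called in the same direction. There were 7 such runs with 22 genes, 3 higher and 4 lower in SR rats. With cohort as covariate 6 of them remained whole, while only 1 of the 3 genes of the run on chromosome 10 that starts at 15577249 was still called. Reads shared between close copies or overlapping genes can make neighbors move together, and whether the counting used the strand is not given in the sources used here.

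A run on chromosome 10 from 86303727 to 86337665 was among those with the least overlap. The summed level of its 3 genes in SR libraries was 192 (XIII-L09), 189 (XIII-R07), 185 (XIII-R09), 187 (XII-L05), 145 (XII-L07), 168 (XII-R05) and 161 CPM (XII-R07). SS libraries had 150, 129, 132 and 135 CPM in XIII-L03, XIII-L05, XIII-L07 and XIII-R03 and 153 and 162 CPM in XII-L03 and XII-R03. The SR libraries of cohort XIII were all above the SS libraries, and those of cohort XII overlapped them. The means were 175 CPM ± 17.6 (SD, n = 7) and 144 ± 13.5 (SD, n = 6; exact two-sided permutation test, p = 0.00932), with CT rats at 145 CPM ± 10.5 (SD, n = 7). On chromosome 6 from 50808923 to 50943488, the 3 genes of a lower run summed to 33.8 to 40 CPM in SR rats (median 36.4) and 35.9 to 43.4 CPM in SS rats (median 41.4). Only the SS library XIII-L03 (35.9 CPM) and the SS library XIII-R03 (39.8 CPM) lay within the SR range (exact two-sided permutation test, p = 0.00932). The runs were picked for their calls, so that these p-values describe them and are not independent evidence.

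The other 5 runs had larger p-values in the exact permutation test. On chromosome 10 from 15577249 to 15603649, the summed level was 1250 CPM in the SR library XII-R05 and 562 CPM in XIII-R09, against 232 to 453 CPM in the other 5 SR libraries and 214 to 427 CPM in SS libraries (exact two-sided permutation test, p = 0.242). On chromosome 20 from 3126829 to 3140610, 3 SS libraries (XIII-R03, XII-L03 and XII-R03) had 16.4, 27.6 and 13.1 CPM and the SR library XII-L07 had 11.8 CPM, while the other SR and SS libraries were at 0.277 to 0.706 CPM. Further along, from 4039413 to 4132616, the 4 genes of a lower run summed to 114 CPM in the SS library XII-L03 and to between 4.06 and 14.5 CPM in the other 12, and within cohort XIII its log2 fold changes were positive, from 0.20 to 0.44. On chromosome 14 from 39661968 to 41786084, SR libraries had 166 to 236 CPM (median 211) and SS libraries 224 to 294 CPM (median 235). Its 3 genes had negative log2 fold changes in both cohorts. The groups overlapped, with the lowest value in the SR library XII-R05 and the highest in the SS library XIII-L05 (exact two-sided permutation test, p = 0.0186). The remaining run, on chromosome 2 from 181987217 to 182038178, consisted of 3 genes of the set that followed the letter, with 7.01 to 11 CPM in the SR libraries of letter L and at most 0.514 CPM in any other SR or SS library.

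In windows of 20 adjacent tested genes, the largest number called lower in SR rats was 7, with 0 called higher, reached on chromosome 18 from 30550877 to 30866645 and on chromosome 6 from 50772829 to 54059119. The median log2 fold change in the chromosome 18 window was -0.15, with -0.06 in cohort XII and -0.19 in cohort XIII. With cohort as covariate the chromosome 18 window had 7 lower genes and the chromosome 6 window had 5. In the chromosome 6 window the median was -0.14, with -0.14 and -0.12 in the cohorts. The largest number called higher was 6, with 0 called lower, on chromosome 8 from 128577080 to 130224444, where the median was 0.10, with 0.05 and 0.15 in the cohorts. Windows overlap, and the extremes were picked from 15362, so that no test is given.

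The means of the saline groups show on which side the METH groups lay. All CT libraries apart from XII-R11 were of cohort XIII, which held 4 of the SS and 3 of the SR libraries. The means did not take cohort into account, so that nearness to CT and a shared cohort cannot be told apart here. Among the 543 genes called higher in SR rats, the SR mean was the highest of the 5 group means in 404 and the SS mean was the lowest in 360, against 3447 and 2683 of the 15797 genes tested. Among the 635 called lower, the SR mean was the lowest in 567 and the SS mean was the highest in 344, against 3629 and 2906 of all. The CT mean was nearer to that of SS rats in 72.6% of the genes called lower and 56.7% of those called higher, against 56.9% of all genes tested. In the list of 57 higher genes, by contrast, CT was nearer to SR in 70.2%, and in the list of 40 lower genes it was nearer to SS in 52.5%. Of the 57 genes 34, and of the 40 genes 20, did not pass the filter in the 13 SR and SS libraries alone and entered the fit with the other groups. CT was nearer to SR in 26 of these 34 and in 14 of the other 23, and in 10 of these 20. Over all genes tested, CT was nearer to SR in 307 of the 629 that did not pass and in 42.8% of the 15168 that did. How far the filter shaped the shares in the lists was not tested. The list of higher genes also includes the 21 genes in which SR libraries of letter L lay at the level of CT libraries. These shares describe the same SR and SS libraries that chose the lists and are not a further test of them.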

How the data were processed

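Hippocampal RNA was enriched for polyadenylated transcripts and sequenced as paired reads of 150 bases. The submitters' processing notes name bcl2fastq 2.17, Trimmomatic 0.36, STAR 2.5.2b and featureCounts of Subread 1.5.2. The authors deposited raw counts per Ensembl gene, 1 table per library, without normalization. The genome build and the use of strand are not given in the sources used here.

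Groups, cohorts and letters were taken from the titles. Counts were normalized by TMM, filtered by edgeR's default filter and tested with edgeR 4.0.16 in R 4.3.3 (quasi-likelihood test, group as the only factor, 30 libraries) and again with cohort as a covariate. CPM are TMM-normalized, and log2 CPM used a prior count of 2. Summed levels of runs were tested as log2 of CPM plus 0.5. Single values were compared by exact two-sided permutation tests. DESeq2 1.42.0, Tukey's test, other filters, normalization, covariates, sample subsets and fold criteria, and each of the 13 libraries left out were alternatives. The 2 genes with the smallest p in each direction were named by identifier. Other genes are described by position and were chosen after their values were seen. The members and lists were chosen with earlier results of these data known. The 38 gene lists drawn up by symbol, with the paper's named transcripts and tissue markers, were not analysed here, since no symbol could be matched. Code was tested on simulated data.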

Additional observations from a re-analysis of the deposited data

Results flagged for a closer look

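The library at either end of each group was compared with its neighbors for 5 library measures, the 4 named genes and the 7 runs of neighboring genes. Of 32 groups of values, 6 held a library far from the rest. All 6 were genes or runs picked for their SR vs. SS values, so that no number expected by chance applies to them. For ENSRNOG00000051439, the SS library XIII-R03 had 0.0524 CPM and the other SS libraries 0, a difference of 1 count that this depth cannot resolve. For ENSRNOG00000010266, the SS library XII-L03 had 7.37 CPM and the next SS library 4.53 CPM. The same library had 114 CPM in the run on chromosome 20 that starts at 4039413, where the next SS library had 11.9 CPM. In the run on chromosome 20 that starts at 3126829, the SR library XII-L07 had 11.8 CPM and the next SR library 0.706 CPM. In the run on chromosome 10 that starts at 15577249, the SR library XII-R05 had 1250 CPM and the next SR library 562 CPM. In the run on chromosome 14 that starts at 39661968, the SS library XIII-L05 had 294 CPM and the next SS library 248 CPM. None of the library measures (total count, genes with a count, mitochondrial share, share of the 10 most counted genes and span correlation) held such a library in either group.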

How the results depend on the processing

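The 4 named genes kept their direction under every alternative run in which they were tested. At the unadjusted threshold, 1178 genes (543 higher, 635 lower in SR rats) became 189 (77 and 112) with Tukey's test, whose p-values allow for the pairs among 5 groups. They became 736 (321 and 415) in the 13 libraries alone and 651 (310 and 341) in those with cohort as covariate, where 758 would be expected if no gene differed. Letter L libraries alone gave 723 of 15285 genes (355 and 368) and letter R libraries alone 554 of 15484 (281 and 273). Both totals were under the 758 expected of 15168 genes if no gene differed. Both settings were chosen after seeing the data and had fewer samples. Without the filter on low counts, 823 genes were higher, and within cohort XIII 374 were lower. Leaving out each library, totals were 813 (409 higher and 404 lower) to 1549, up to 756 higher and up to 900 lower. The 404 lower genes and the 813, of 15793 genes tested, were without the SS library XIII-L05. This total was close to the 790 expected of 15797 genes if no gene differed.

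At the adjusted threshold, 0 genes became 12 with DESeq2, 4 with letter as covariate, 11 in letter L and 5 in letter R libraries, and 0 to 10 without a library. Of the 12, 8 were higher in SR rats, 7 were of the set that followed the letter, and 4 were the named genes. Without SR XIII-R07, XIII-R09, XII-R05 and XII-R07 there were 10, 4, 3 and 4, all SR libraries of letter R, and 5, 4, 3 and 4 of these genes were of that set. With cohort as covariate, 0 became 5 with DESeq2, 4 of them the named genes, and 0 to 9 without a library (9, 2 and 4 without XIII-R07, XIII-R09 and XII-R07). The unadjusted count with this covariate was 845 to 1318 without a library and 940 to 1478 under the alternatives. The difference between cohorts gave 0 to 6 adjusted genes without a library, with 6 without the SS library XII-R03, which leaves 1 SS library in cohort XII, assumed to vary like the other cells. The cause was not tested.

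The 1.7-fold lists moved most with the filter. From 57 higher and 40 lower genes they went to 342 and 279 with at least 1 count, and to 9 and 10 with at least 10 counts in each library, which leaves fewer genes to test. They were 11 and 6 with Tukey's test, 22 and 18 in the 13 libraries alone and 24 and 17 in those with cohort. Within cohort XII 106 genes were lower. At 1.5-fold 86 genes were higher, and at 2-fold 32 were higher and 24 lower. Without a library the lists held 50 to 74 higher and 29 to 45 lower genes. Median-ratio size factors gave 1177 genes at the unadjusted threshold and 57 and 40 at 1.7-fold. Within cohort XIII, the lower named genes no longer passed the unadjusted threshold, and the higher named genes were not tested there. The latter did not pass the filter either in the 13 libraries alone, without or with cohort, in letter R libraries alone or with at least 10 counts in each library. Without the SR libraries of letter L the higher named genes did not pass the unadjusted threshold, and their log2 fold changes dropped to 1.63 and 0.67. In letter R libraries alone the lower named genes did not pass that threshold either, but their log2 fold changes were -0.63 and -0.25, against -0.82 and -0.27 with all libraries. Depth limits the many listed genes under 1 CPM, where a library holds few counts per gene.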
